A study of Schizosaccharomyces pombe with 9 samples.

Results

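Transcript levels were examined for 111 genes of ribosome biogenesis and RNA polymerase I in fission yeast, out of 6986 genes in the deposited count table. The genes were taken by their annotated product, which had to name rRNA processing, the U3 snoRNP, ribosome biogenesis, an rRNA methyltransferase, fibrillarin or RNA polymerase I; non-coding RNAs and mitochondrial products were left out. All 111 passed the filter on low counts, and 104 carry a gene name. Poly(A)+ RNA had been sequenced from 3 groups of 3 libraries each. STF6 and STF9 are suppressor mutants of a parental strain, rpb1-CTD-T4A29 (T4A below), in which Thr4 of the repeated tail of RNA polymerase II is replaced and the phosphate-responsive (PHO) genes are hyper-repressed, per the series title. The mutants were isolated as suppressors of that parent, so by derivation all 3 groups carry the same rpb1 allele. Cells were in vegetative log phase growth in YES, a rich medium. Each group is 1 strain by its laboratory number, so a suppressor mutation cannot be told apart from any other difference between the strains. Neither the labels nor the design text names the mutated genes.

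RNA polymerase I transcribes the long precursor of the ribosomal RNAs from the tandem rDNA repeats in the nucleolus. The U3 snoRNP and many assembly factors bind this precursor as it is made, fold and cleave it, and release precursors of the small and large ribosomal subunits, which mature further in the nucleus and the cytoplasm. In growing yeast the genes for these factors are transcribed by RNA polymerase II, and their mRNA levels are known to follow growth and nutrient signals. Poly(A)+ libraries measure these mRNAs, and the rRNA precursor itself was not analysed here.

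Total counts per library ranged from 15374453 to 22909747, and the 111 genes took 1.05% to 1.40% of them. The first principal component (65.7% of the variance) set the 6 mutant libraries, at 11.4 to 16.2, apart from the 3 T4A libraries, of which replicate 2 lay farthest out (−36.8, against −23.1 for replicate 1 and −19.7 for replicate 3). T4A libraries also varied most among themselves: over the 111 genes the median coefficient of variation was 5.63% in STF6, 7.42% in STF9 and 17.9% in T4A, against 5.79%, 6.12% and 14.3% over all 5951 genes tested. The T4A spread therefore enters every comparison with the parent. Values without a T4A library stand beside the named genes whose call it changes, or that passed and whose fold it moves by over 1.5 times. For genes that did not pass, not every such move is given. Levels below are in CPM, each count set against its library's TMM-scaled total. Changes are on the log2 scale and stand beside their standard error (SE); they come from edgeR's quasi-likelihood test, whose p-values were corrected by Benjamini-Hochberg across all 5951 genes. The words rose and fell are kept for genes with an adjusted p under 0.05. CPM are shares of a library's mRNA, so less of one mRNA per cell, fewer cells expressing it and more of all other mRNA cannot be told apart.

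Most of these genes were moderately higher in both mutants than in the parent, while a smaller set was lower. In STF6, 33 of 111 rose (29.7%, against 19.2% of all genes tested) and 11 fell (9.91%, against 19.2% of all genes tested). Their median log2 fold change was 0.24, against 0.03 over all genes. In STF9, 52 rose (46.8%, against 23.0% of all genes tested) and 12 fell (10.8%, against 21.3%), with a median of 0.36, against 0.04 over all genes. Counting both directions, 44 of the 111 passed in STF6, against 38.4% of all genes, and 64 in STF9, against 44.2%. Whatever their p, 90 of 111 had a log2 fold change above 0 in STF6 (81.1%, against 52.7% of all genes) and 89 in STF9 (80.2%, against 53.6%). The changes were small: fold changes ran from −0.84 to 1.02 in STF6 and from −0.94 to 1.05 in STF9, and 1 gene, fib1, changed at least 2-fold in either mutant, where 2.39% of all genes were at least 2-fold higher in STF6 and 2.37% in STF9. None was 2-fold lower, against 3.28% of all genes in STF6 and 3.19% in STF9.

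The number of genes that rose depended on single libraries, and the number that fell much less. In STF6 the 33 became 18, 16 and 13 without STF6 replicate 1, 2 and 3, 21 without STF9 replicate 2, which shares the estimate of the spread, and 51 without T4A replicate 3. In STF9 the 52 became 29 and 31 without STF9 replicate 2 and 3. The numbers that fell ran from 11 to 13 in STF6 and from 9 to 14 in STF9 when 1 library was left out. The dependence was not particular to these genes. Over all genes tested, the number that rose ran from 745 to 1410 in STF6 and from 807 to 1645 in STF9 in the same fits. The number of all genes that fell ran from 905 to 1443 and from 814 to 1528. Both mutants were set against the same 3 T4A libraries, so their results are not independent of each other.

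**Figure D1:**
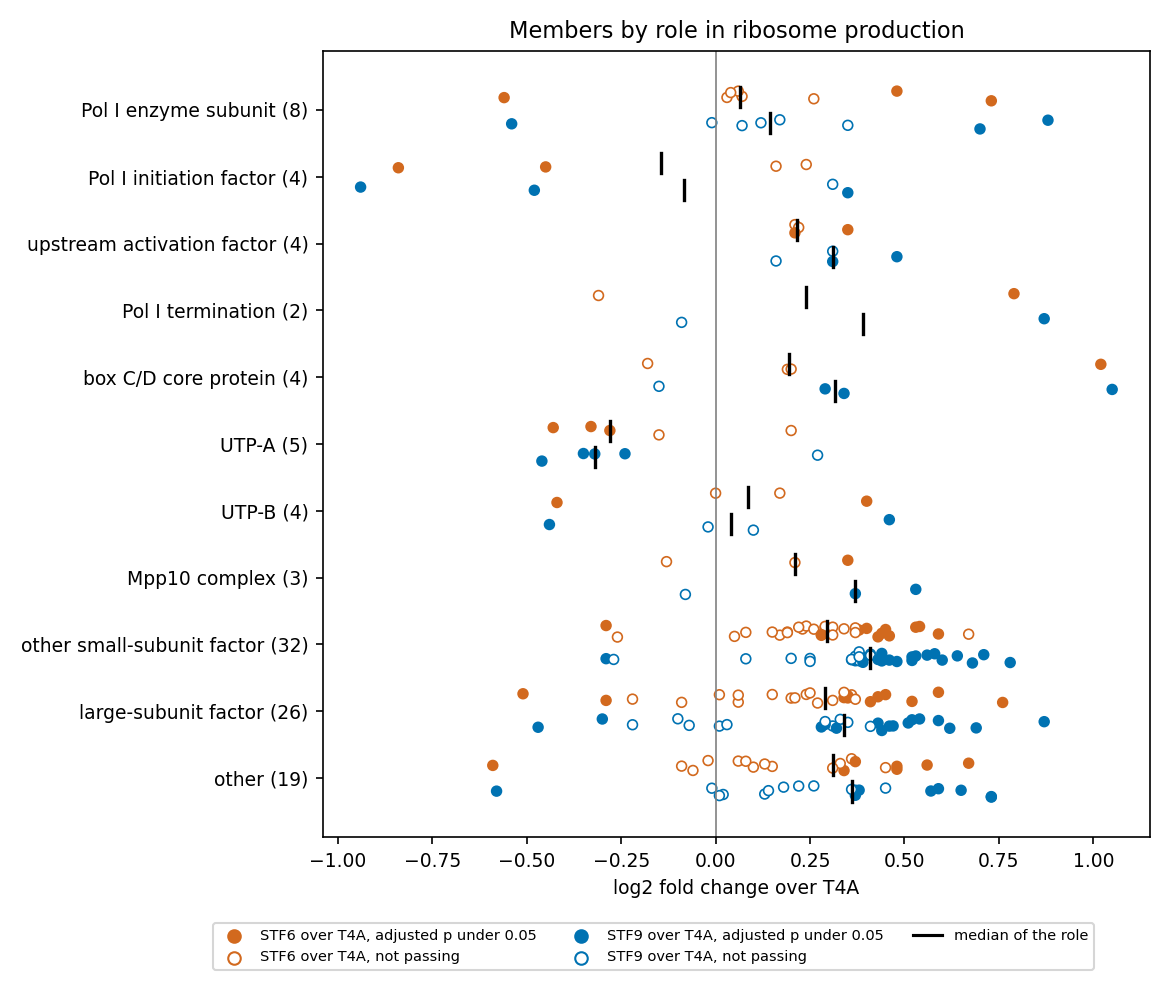
Log2 fold change over T4A (x axis) of each of the 111 genes, grouped down the page by role with the number of genes in brackets; STF6 is drawn above STF9 in each role, filled points passed the test, open points did not, and bars are medians. Other small-subunit factors and large-subunit factors lie mainly right of 0 (medians 0.30 for the 32 other small-subunit factors and 0.29 for the large-subunit ones in STF6, and 0.41 and 0.34 in STF9), and the UTP-A subunits mainly left of it (−0.28 and −0.32).

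The 18 genes for RNA polymerase I and its factors included both increases and decreases. In STF6, 5 rose (27.8%, against 19.2% of all genes) and 3 fell (16.7%, against 19.2%). In STF9, 6 rose (33.3%, against 23.0%) and 3 fell (16.7%, against 21.3%). For a group of 18 genes, the shares that fell were near those of all genes. The rest did not pass the test. Without 1 library the number higher in STF6 ran from 1 (without STF6 replicate 3) to 6, and was 3 or fewer without any 1 mutant library or T4A replicate 1, while 3 fell in both mutants in all 9 such fits. The strongest decrease among all 111 genes was in rrn3 (SPAC18G6.11c), which encodes the factor that binds RNA polymerase I and brings it to the rDNA promoter. Its level was 115, 110.3 and 106 CPM in the STF6 libraries, 107, 105 and 98.6 CPM in the STF9 libraries, and 193, 214 and 188 CPM in the T4A libraries. All 6 mutant libraries lay below all 3 parental ones, by a margin much wider than the spread within any group. The log2 fold change was −0.84 ± 0.07 in STF6 (adjusted p = 5.11e-06) and −0.94 ± 0.08 in STF9 (adjusted p = 2.82e-06), and it stayed between −0.99 and −0.78 over all alternatives in both mutants.

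Rrn3 works with the core factor, which in budding yeast is made of Rrn6, Rrn7 and Rrn11 and sits on the core promoter. Its subunits did not move together. The gene rrn6 had 70.6, 72.7 and 72.7 CPM in STF6, 71.5, 72.9 and 66.7 CPM in STF9, and 86.0, 117 and 91.6 CPM in T4A, so the groups did not overlap. It fell by 0.45 ± 0.10 in STF6 (adjusted p = 0.00511) and by 0.48 ± 0.10 in STF9 (adjusted p = 0.00327); without T4A replicate 2, the highest library, the STF6 value was −0.30 and still passed. In contrast rrn7 was at 36.9, 33.6 and 40.0 CPM in STF6, 36.3, 41.5 and 41.4 CPM in STF9, and 30.6, 27.9 and 34.7 CPM in T4A. It rose in STF9 (0.35 ± 0.11, adjusted p = 0.0245), where its libraries lay above those of T4A, and did not pass in STF6 (0.24 ± 0.11, adjusted p = 0.110; 0.33, adjusted p = 0.0364, without T4A replicate 3). The STF9 call was lost without T4A replicate 1, STF6 replicate 1 or 2, or STF9 replicate 2 or 3 (0.29 to 0.34, adjusted p = 0.0513 to 0.128). The values of rrn11 were 0.16 ± 0.13 and 0.31 ± 0.13, with neither past the threshold, though the STF9 value passed without T4A replicate 3 (0.40, adjusted p = 0.0320). Without T4A replicate 2 the rrn11 values were 0.08 and 0.23, and did not pass.

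The upstream activation factor binds upstream of the core promoter and raises initiation. All 4 of its genes had positive fold changes in both mutants, as did 81.1% of the 111 genes in STF6 and 80.2% in STF9. Over all genes tested the shares above 0 were 52.7% and 53.6%. Of the 4, 2 rose in each mutant, where 19.2% of all genes rose in STF6 and 23.0% in STF9. The gene spp27 had 154, 163 and 175 CPM in STF6, 163, 177 and 188 CPM in STF9, and 142, 141 and 142 CPM in T4A; here the parental libraries were nearly identical and the mutant ones all higher. Its fold change was 0.21 ± 0.08 in STF6 (adjusted p = 0.0454) and 0.31 ± 0.08 in STF9 (adjusted p = 0.00627). The gene acr1 had 34.9, 39.7 and 39.8 CPM in STF6, 39.1, 41.6 and 44.0 CPM in STF9, and 31.6, 23.9 and 33.9 CPM in T4A, which gave 0.35 ± 0.13 (adjusted p = 0.0441) and 0.48 ± 0.13 (adjusted p = 0.0100). The STF6 calls were close to the threshold. That of spp27 was lost in 8 of the 9 fits without 1 library (all but the one without T4A replicate 2; 0.13 to 0.23, adjusted p = 0.0506 to 0.270). That of acr1 was lost in 7 of 9 (all but those without T4A replicate 2 or 3; adjusted p = 0.0570 to 0.183; 0.22 without T4A replicate 2, adjusted p = 0.0491), and its STF9 call was lost without STF9 replicate 2 (0.45, adjusted p = 0.0510). Values for rrn5 were 0.22 ± 0.14 and 0.31 ± 0.14, and for rrn10 0.21 ± 0.14 and 0.16 ± 0.14, none of which passed. Without T4A replicate 3, rrn5 passed in both (0.36, adjusted p = 0.0449, and 0.44, adjusted p = 0.0163). Without T4A replicate 2 it was at 0.07 and 0.15 and passed in neither (adjusted p = 0.565 and 0.162).

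Of the 8 genes for subunits of the enzyme, the pair rpa34 and rpa49 rose and rpa2 fell in both mutants. The other 5 did not pass in either mutant with all libraries. Of all genes tested, 19.2% rose and 19.2% fell in STF6, and 23.0% rose and 21.3% fell in STF9. For a group of 8 genes, the shares that rose and fell were near those of all genes. Rpa34 and Rpa49 form a subcomplex particular to RNA polymerase I that is known to assist initiation and elongation. The level of rpa34 (SPBC11G11.05) was 27.6, 29.2 and 33.1 CPM in STF6, 27.6, 34.3 and 38.0 CPM in STF9, and 18.8, 12.5 and 22.7 CPM in T4A. That of rpa49 (SPAC2F3.03c) was 65.3, 70.3 and 76.6 CPM in STF6, 71.6, 84.5 and 92.2 CPM in STF9, and 51.4, 39.4 and 61.3 CPM in T4A. For both genes every mutant library was above every parental one, and T4A replicate 2 was the lowest of all. The fold changes were 0.73 ± 0.19 (adjusted p = 0.00921) and 0.88 ± 0.19 (adjusted p = 0.00299) for rpa34, and 0.48 ± 0.14 (adjusted p = 0.0184) and 0.70 ± 0.14 (adjusted p = 0.00207) for rpa49, in STF6 and STF9. In STF6 the rpa34 call was lost without STF6 replicate 3 (0.62, adjusted p = 0.0589), and the rpa49 call without STF6 replicate 2 or 3 (0.46 and 0.38, adjusted p = 0.0700 and 0.111).

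Rpa2 forms the catalytic centre together with the largest subunit, Nuc1; rpa2 fell, and the call of nuc1 depended on a parental library. Levels of rpa2 (SPBP23A10.07) were 283, 299.8 and 273 CPM in STF6, 294, 286 and 289 CPM in STF9, and 392, 516 and 358 CPM in T4A. The mutant libraries were tightly grouped and all below the parental ones. The fold change was −0.56 ± 0.11 in STF6 (adjusted p = 0.00211) and −0.54 ± 0.11 in STF9 (adjusted p = 0.00267). For nuc1 the levels were 182, 175 and 168 CPM in STF6, 179, 183 and 174 CPM in STF9, and 164, 193 and 155 CPM in T4A, with overlapping groups and fold changes of 0.04 ± 0.08 and 0.07 ± 0.08, which did not pass. Without T4A replicate 2, its highest library, nuc1 was called higher in both mutants (0.15, adjusted p = 0.0467, and 0.18, adjusted p = 0.0167). The subunits shared with RNA polymerase III, rpc19 (0.07 ± 0.07 and −0.01 ± 0.07) and rpc40 (0.06 ± 0.09 and 0.12 ± 0.09), the stalk subunit rpa43 (0.03 ± 0.10 and 0.17 ± 0.10) and ker1 (0.26 ± 0.17 and 0.35 ± 0.17) did not pass, but ker1 passed in STF9 without T4A replicate 3 (0.51, adjusted p = 0.0217). Without T4A replicate 2, ker1 was at 0.07 and 0.17 and did not pass. A further subunit gene that the annotated wording of the rule misses, rpa12, fell in both mutants (−0.45 ± 0.07, adjusted p = 5.37e-04, and −0.42 ± 0.07, adjusted p = 8.48e-04); it was looked up after the values of the others had been seen. Subunit genes that rose and subunit genes that fell thus stood side by side in the enzyme. Their numbers were not shown to exceed the shares of all genes.

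Reb1, which stops RNA polymerase I at the end of the rDNA unit and also binds promoters of RNA polymerase II genes, had one of the larger increases. Its gene, reb1 (SPBC1198.11c), was at 36.5, 36.9 and 36.7 CPM in STF6, 35.3, 39.8 and 41.8 CPM in STF9, and 22.8, 15.8 and 25.1 CPM in T4A. The lowest mutant library was well above the highest parental one. The gene rose by 0.79 ± 0.15 in STF6 (adjusted p = 0.00128) and by 0.87 ± 0.15 in STF9 (adjusted p = 6.76e-04), with calls that held under all 16 alternatives. The predicted termination factor gene eta2 was listed at only 1.75 to 2.64 CPM in the 9 libraries and did not pass (−0.31 ± 0.19 and −0.09 ± 0.19).

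**Figure D2:**
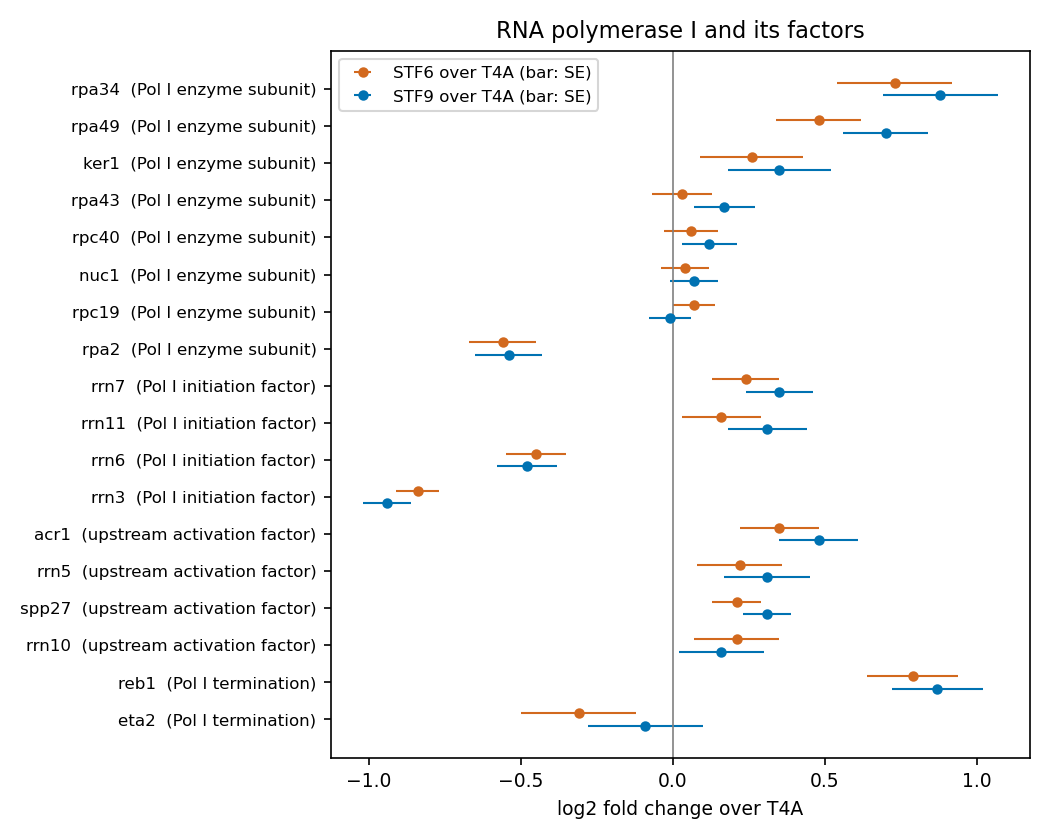
Log2 fold change over T4A (x axis) with its SE (bars) for the 18 genes of RNA polymerase I and its factors, ordered by role; STF6 is drawn above STF9 for each gene. Genes rpa34, rpa49 and reb1 lie right of 0 and rpa2, rrn6 and rrn3 left of it, the last at −0.84 and −0.94.

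The gene for fibrillarin, fib1 (SPBC2D10.10c), had the largest increase of all 111. Fibrillarin is the methyltransferase of the box C/D snoRNPs, which place ribose methyl groups on rRNA, and it is also part of the U3 snoRNP. Its level was 686, 593 and 589 CPM in STF6, 637, 625 and 641 CPM in STF9, and 324, 320.2 and 277 CPM in T4A. The mutant and parental libraries were far apart, and T4A replicate 2 lay between the other parental libraries. The log2 fold change was 1.02 ± 0.09 in STF6 (adjusted p = 5.11e-06) and 1.05 ± 0.09 in STF9 (adjusted p = 4.67e-06), and stayed between 0.93 and 1.11 over all alternatives.

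The other core proteins of the same particles changed less. Nop56 and Nop58 are the paired scaffold proteins and Snu13 binds the guide RNA directly. For nop58 the levels were 349, 391 and 381 CPM in STF6, 371, 413 and 419.8 CPM in STF9, and 343, 292 and 349.9 CPM in T4A; for nop56 they were 269.6, 285 and 276 CPM in STF6, 286, 306 and 319 CPM in STF9, and 276, 207 and 239 CPM in T4A. Both rose in STF9 (0.29 ± 0.09, adjusted p = 0.0210, and 0.34 ± 0.10, adjusted p = 0.0146), while the STF6 values of 0.19 ± 0.09 and 0.20 ± 0.10 did not pass; STF9 and STF6 did not differ at the threshold for either gene. These STF9 calls were lost without STF9 replicate 2 or 3 (0.24 and 0.26 for nop58, 0.30 without either for nop56), and that of nop58 also without STF6 replicate 2 (0.26). In STF6, nop58 passed without T4A replicate 3 (0.24, adjusted p = 0.0457) and nop56 without T4A replicate 1 (0.31, adjusted p = 0.0230). Without T4A replicate 2 the STF6 values were 0.12 for nop58 and 0.11 for nop56, and did not pass. The values of snu13 were −0.18 ± 0.08 and −0.15 ± 0.08, which passed only without T4A replicate 3 (−0.23, adjusted p = 0.0158, and −0.20, adjusted p = 0.0311). None of the 3 came near the 2-fold change of fib1.

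Of the 5 genes annotated as rRNA methyltransferases, fib1 among them, 3 rose in each mutant. SPBC4.02c, a predicted fibrillarin-like protein, was at 176, 163 and 151 CPM in STF6, 159, 145 and 148 CPM in STF9, and 122, 116 and 113 CPM in T4A. It rose by 0.48 ± 0.08 (adjusted p = 4.94e-04) and 0.37 ± 0.08 (adjusted p = 0.00265) with no overlap between groups. The gene spb1, which in budding yeast encodes a methyltransferase of the large-subunit precursor, was at 101, 107 and 108 CPM in STF6, 105, 116 and 128 CPM in STF9, and 88.3, 55.0 and 87.7 CPM in T4A. Its low T4A library was replicate 2. The fold changes were 0.45 ± 0.15 (adjusted p = 0.0264) and 0.59 ± 0.15 (adjusted p = 0.00630), and without T4A replicate 2 the STF6 value was 0.27. The STF6 call was lost without any 1 of the STF6 libraries or without STF9 replicate 2 (0.40 to 0.46, adjusted p = 0.0583 to 0.111). The remaining genes, rrp8 (0.20 ± 0.18 and 0.33 ± 0.18) and tgs1 (0.06 ± 0.11 and 0.02 ± 0.11), did not pass, but rrp8 did in STF9 without T4A replicate 3 (0.54, adjusted p = 0.0192). Without T4A replicate 2, rrp8 was at 0.00 and 0.14 and did not pass. The wording of the rule misses nop2 and bud23, which are also annotated with an rRNA methyltransferase activity and are named outside the rule. Of these, nop2 rose (0.44 ± 0.12 and 0.61 ± 0.12), and bud23 did not pass (0.12 ± 0.14 and 0.34 ± 0.13). The STF6 call of nop2 was lost without STF6 replicate 2 or 3 (0.41).

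**Figure D3:**
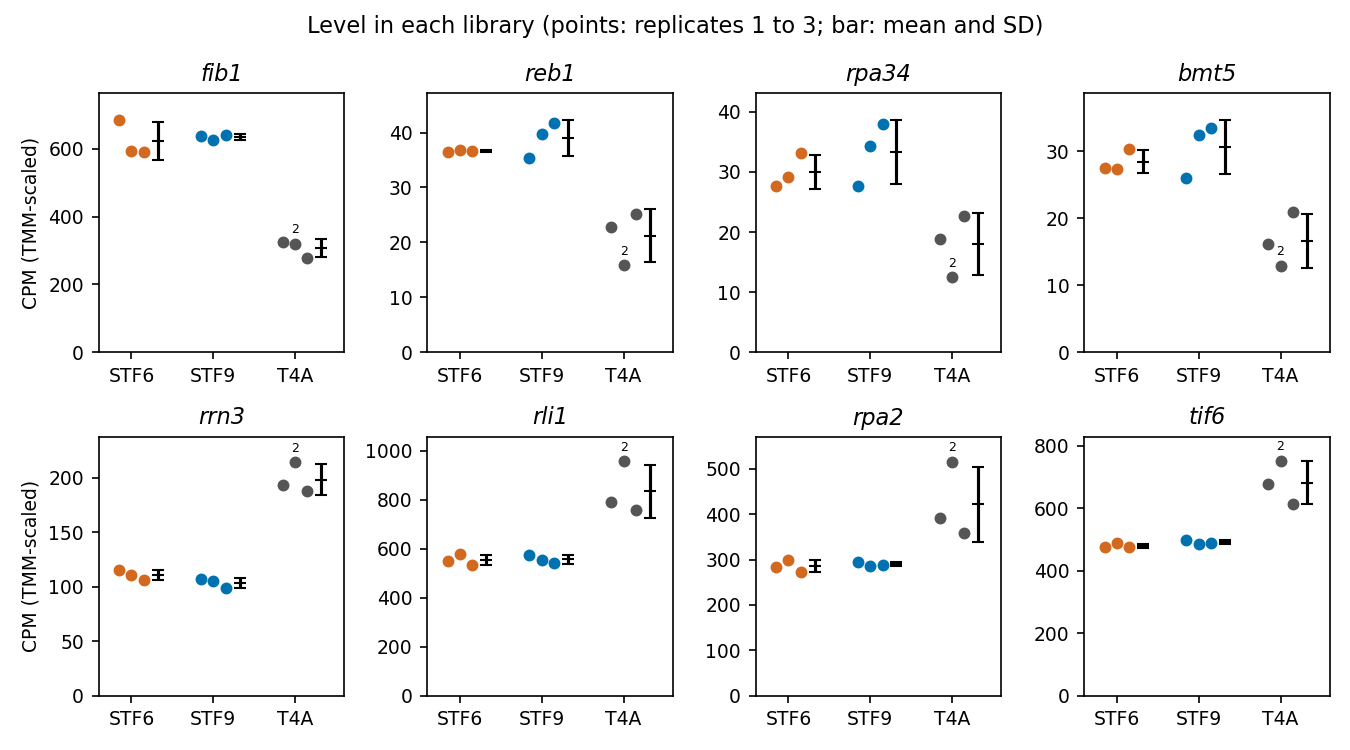
Level in CPM (y axis, from 0) of 8 genes in each library, with points for replicates 1 to 3 of STF6, STF9 and T4A and bars for the mean and SD; T4A replicate 2 is marked. In the upper row (fib1, reb1, rpa34, bmt5) all mutant libraries lie above the parental ones, and in the lower row (rrn3, rli1, rpa2, tif6) all lie below.

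Subcomplexes of the small-subunit processome, the particle that forms on the 5′ part of the precursor, differed in which way their genes were called. Their genes are given in full, some of them outside the rule for named genes and chosen after their values were seen. UTP-A is the subcomplex that binds the nascent precursor first and, in budding yeast, is linked to rDNA transcription. Of its 5 genes found by the rule, none rose and 3 fell in STF6 (nan1, utp4 and utp10), and 4 fell in STF9 (the same 3 and utp15). Of all genes 19.2% fell in STF6 and 21.3% in STF9. The median fold changes were −0.28 and −0.32. The gene utp10 (SPBC23E6.04c) was at 214, 215 and 202 CPM in STF6, 214, 205 and 199 CPM in STF9, and 251, 343 and 254 CPM in T4A; utp4 was at 187, 182 and 172 CPM in STF6, 180.2, 174 and 171 CPM in STF9, and 224, 232 and 202 CPM in T4A; nan1 was at 227, 224 and 224 CPM in STF6, 232, 220.1 and 215 CPM in STF9, and 266, 315 and 269.9 CPM in T4A. None of these groups overlapped with the parent.

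For utp10 the fold changes were −0.43 ± 0.11 (adjusted p = 0.00797) and −0.46 ± 0.11 (adjusted p = 0.00513), for utp4 −0.28 ± 0.07 (adjusted p = 0.0109) and −0.32 ± 0.07 (adjusted p = 0.00476), and for nan1 −0.33 ± 0.08 (adjusted p = 0.00574) and −0.35 ± 0.08 (adjusted p = 0.00403). T4A replicate 2 was the highest parental library for each, and without it utp10 was at −0.26 and −0.29 and still passed. The fold changes of utp15 were −0.15 ± 0.08 in STF6 and −0.24 ± 0.08 in STF9, and the STF9 call was lost without STF9 replicate 2 or 3 (−0.27 and −0.21); without T4A replicate 2 it was at −0.15. The exception was utp5, at 0.20 ± 0.12 and 0.27 ± 0.12, which passed in neither, although 1 UTP-A gene was called higher in STF9 without T4A replicate 3. A subunit outside the annotated wording, utp8, was at 0.19 ± 0.09 and 0.21 ± 0.09 without passing, and was looked up after the values of the others had been seen. With T4A replicate 2 left out, UTP-A had 3 genes lower in STF6 and 4 in STF9, with medians of −0.23 and −0.26.

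UTP-B, which binds next, was mixed. Its gene pwp2 was at 209.9, 207 and 190.4 CPM in STF6, 209, 198 and 192 CPM in STF9, and 259, 308 and 248 CPM in T4A, and fell by 0.42 ± 0.09 (adjusted p = 0.00276) and 0.44 ± 0.09 (adjusted p = 0.00206). The gene utp6 was at 57.6, 53.9 and 61.6 CPM in STF6, 54.9, 60.3 and 64.8 CPM in STF9, and 44.6, 32.9 and 53.4 CPM in T4A, and rose by 0.40 ± 0.14 (adjusted p = 0.0425) and 0.46 ± 0.14 (adjusted p = 0.0217). The STF6 call of utp6 was lost in 7 of the 9 fits without 1 library, all but those without T4A replicate 2 or 3 (adjusted p = 0.0530 to 0.190), and the STF9 call without STF6 replicate 1 or STF9 replicate 2 or 3 (adjusted p = 0.0510 to 0.0881); without T4A replicate 2 the folds were 0.24 and 0.29. In that fit 2 UTP-B genes were called higher in each mutant. Neither utp13 (0.17 ± 0.09 and 0.10 ± 0.09) nor utp21 (0.00 ± 0.09 and −0.02 ± 0.09) passed. In the Mpp10 complex, which joins the U3 snoRNA to the precursor, mpp10 rose in both mutants (0.35 ± 0.12, adjusted p = 0.0386, and 0.53 ± 0.12, adjusted p = 0.00506), and imp4 in STF9 (0.37 ± 0.11, adjusted p = 0.0179; 0.21 ± 0.11 in STF6). The STF6 call of mpp10 was lost in 6 of 9 fits without 1 library (T4A replicate 1, any STF6 replicate, STF9 replicate 1 or 2; adjusted p = 0.0503 to 0.180) and that of imp4 without STF9 replicate 2 or 3 (0.35 and 0.29). The gene imp3 was at −0.13 ± 0.10 and −0.08 ± 0.10, and 1 gene of the complex was called lower in STF6 without T4A replicate 2.

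Of 32 other factors of the small subunit, 10 rose and 1 fell in STF6 (median 0.30), against 19.2% and 19.2% of all genes, and 21 did not pass. In STF9, 18 rose and 1 fell (median 0.41), against 23.0% and 21.3% of all genes. Among the largest increases was rrp7, the gene of a factor of a further processome subcomplex, at 32.7, 34.2 and 38.1 CPM in STF6, 35.6, 42.2 and 41.5 CPM in STF9, and 24.4, 16.8 and 28.2 CPM in T4A. It rose by 0.59 ± 0.16 (adjusted p = 0.0114) and 0.78 ± 0.16 (adjusted p = 0.00240). The gene utp14, whose product in budding yeast activates the helicase that removes U3, was at 73.7, 79.5 and 85.0 CPM in STF6, 77.2, 89.7 and 95.3 CPM in STF9, and 58.5, 37.3 and 67.5 CPM in T4A (0.54 ± 0.16, adjusted p = 0.0212, and 0.68 ± 0.16, adjusted p = 0.00606). In both genes the mutant libraries lay above all parental ones and T4A replicate 2 was lowest; without it utp14 was at 0.34 in STF6. Other genes that rose in both mutants were esf1 (0.53 ± 0.17 and 0.64 ± 0.17), mrd1 (0.46 ± 0.14 and 0.52 ± 0.14), which encodes an RNA-binding protein, and utp16 (0.45 ± 0.16 and 0.60 ± 0.16). They still passed without T4A replicate 2, at 0.31 and 0.42 for esf1, 0.30 in STF6 for mrd1, and 0.25 and 0.40 for utp16. Higher in STF9 by the test, and not past it in STF6, was rrp36 (0.71 ± 0.27, adjusted p = 0.0492, and 0.67 ± 0.27, adjusted p = 0.0682, in STF9 and STF6), whose T4A replicate 2 held 6.66 CPM against 15.5 and 18.6 CPM in the other parental libraries. Without that library rrp36 passed in both mutants at a smaller fold (0.40, adjusted p = 0.0203, in STF9 and 0.35, adjusted p = 0.0408, in STF6), and without T4A replicate 3 it passed in STF6 at 0.96.

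Many of these calls were near the threshold. Without STF6 replicate 1, 2 or 3, the 10 genes higher in STF6 became 3, 3 and 2, and without STF9 replicate 2 they became 6. Without STF9 replicate 2 or 3, the 18 higher in STF9 became 6 and 8. Without T4A replicate 3 the STF6 count was 16, and without T4A replicate 2 the counts were 12 and 19 while the medians were 0.13 and 0.25. Of the genes just named, the STF6 calls of utp14, mrd1 and esf1 were lost without any 1 of the 3 STF6 libraries, that of esf1 also without STF9 replicate 2, that of rrp7 without STF6 replicate 3, and that of utp16 in all fits but those without T4A replicate 2 or 3. The STF9 calls of esf1 and mrd1 were lost without STF9 replicate 2 or 3, that of utp16 without STF9 replicate 2, and that of rrp36 in all fits but those without T4A replicate 2 or 3. Adjusted p ran from 0.0516 to 0.162 over these losses. The 1 gene that fell was rcl1, which in budding yeast is needed for cleavage at the start of the small-subunit rRNA's release. It was at 264, 267 and 262 CPM in STF6, 276, 261 and 254 CPM in STF9, and 306, 370.0 and 292 CPM in T4A (−0.29 ± 0.09, adjusted p = 0.0222, and −0.29 ± 0.09, adjusted p = 0.0188). Without T4A replicate 2 it was at −0.17 and −0.18, and its STF9 call was lost without STF9 replicate 3 (−0.26, adjusted p = 0.0821). Its STF6 call was lost in a fit of only the STF6 and T4A libraries (−0.29, adjusted p = 0.0652). The factors rrp12 (0.05 ± 0.09 and 0.08 ± 0.09) and tsr2 (0.08 ± 0.12 and 0.25 ± 0.12), both among the most abundant of their annotation class, did not pass with all libraries. Without T4A replicate 2, its highest parental library, rrp12 was called higher in both mutants (0.18, adjusted p = 0.0143, and 0.20, adjusted p = 0.00491).

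Of 26 factors of the large subunit, 9 rose and 2 fell in STF6 (median 0.29), and 14 rose and 2 fell in STF9 (median 0.34), against 19.2% and 19.2% of all genes in STF6 and 23.0% and 21.3% in STF9. Without 1 library the number higher in STF6 ran from 5 (without STF6 replicate 3) to 16 (without T4A replicate 3). The largest increase was in bmt5 (SPCC1919.13c), whose budding yeast counterpart methylates large-subunit rRNA, with 27.5, 27.4 and 30.4 CPM in STF6, 26.0, 32.4 and 33.5 CPM in STF9, and 16.2, 12.9 and 20.9 CPM in T4A. It rose by 0.76 ± 0.16 (adjusted p = 0.00301) and 0.87 ± 0.16 (adjusted p = 0.00131). The gene cgr1, for a nucleolar factor of this subunit, was at 46.7, 46.7 and 57.1 CPM in STF6, 48.5, 53.7 and 59.1 CPM in STF9, and 34.3, 27.0 and 38.4 CPM in T4A (0.59 ± 0.13, adjusted p = 0.00479, and 0.69 ± 0.13, adjusted p = 0.00176). Calls of both genes held under all 16 alternatives. The gene rei1, which acts late and in the cytoplasm, was at 255, 244 and 222 CPM in STF6, 229, 219.7 and 227 CPM in STF9, and 199, 170.2 and 174 CPM in T4A, and rose by 0.41 ± 0.08 (adjusted p = 0.00203) and 0.32 ± 0.08 (adjusted p = 0.00856). The gene rlp7, whose product resembles a ribosomal protein and binds the spacer between the large-subunit rRNAs in budding yeast, rose too (0.52 ± 0.15, adjusted p = 0.0194, and 0.62 ± 0.16, adjusted p = 0.00690). Its STF6 call was lost without STF6 replicate 2 or 3 (0.47 and 0.45), and without T4A replicate 2 the STF6 value was 0.33. The gene ebp2 rose in STF9 (0.54 ± 0.17, adjusted p = 0.0197; 0.36 ± 0.17 in STF6), a call lost without STF9 replicate 2 or 3 (0.53 and 0.43). Without T4A replicate 2, ebp2 was at 0.15 in STF6, which did not pass, and at 0.34 in STF9. Without T4A replicate 3 it passed in STF6 (0.52, adjusted p = 0.0184).

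The 2 large-subunit genes that fell were tif6 and rsa4. Tif6 keeps the new large subunit from joining a small one before it is ready. Its gene was at 474, 487 and 474 CPM in STF6, 499, 486 and 489 CPM in STF9, and 677, 752 and 614 CPM in T4A, with the mutant libraries close together and clearly below the parent. It fell by 0.51 ± 0.08 in STF6 (adjusted p = 6.06e-04) and by 0.47 ± 0.08 in STF9 (adjusted p = 0.00101). Rsa4, which is pulled off the precursor by the ATPase Mdn1 in budding yeast, had its gene at 272, 279 and 264 CPM in STF6, 270.4, 269 and 273 CPM in STF9, and 331, 378 and 291 CPM in T4A (−0.29 ± 0.09, adjusted p = 0.0203, and −0.30 ± 0.09, adjusted p = 0.0169). Without T4A replicate 2 it was at −0.19 and −0.20, and the STF9 call was lost without STF9 replicate 3 (−0.31, adjusted p = 0.0551). The STF6 call of rsa4 was lost in a fit of only the STF6 and T4A libraries (−0.29, adjusted p = 0.0652).

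Among the 19 remaining genes, 6 rose and 1 fell in STF6, and 8 rose and 1 fell in STF9, against the same shares of all genes. The decrease was in rli1 (SPBC14F5.06), the gene of an iron-sulfur ATPase that splits ribosomes after translation ends. It was at 549.7, 577 and 535 CPM in STF6, 576, 556 and 540.1 CPM in STF9, and 790.4, 957 and 757 CPM in T4A, and fell by 0.59 ± 0.09 (adjusted p = 4.99e-04) and 0.58 ± 0.09 (adjusted p = 5.50e-04). The mutant groups did not overlap with the parent. The gene gar2, for a nucleolar protein related to nucleolin, rose (581, 564 and 550.0 CPM in STF6, 562, 576 and 589 CPM in STF9, 453, 467 and 415 CPM in T4A; 0.34 ± 0.08 and 0.37 ± 0.08). So did SPBC16H5.08c, a predicted ABCF2-like ATPase, at 793, 742 and 648 CPM in STF6, 678, 690.3 and 666 CPM in STF9, and 564, 518 and 479 CPM in T4A (0.48 ± 0.09, adjusted p = 0.00170, and 0.38 ± 0.09, adjusted p = 0.00644). For these 2 genes T4A replicate 2 was not the lowest parental library. The gene pxr1, for a G-patch protein, rose by 0.67 ± 0.13 (adjusted p = 0.00171) and 0.73 ± 0.13 (adjusted p = 9.94e-04). The gene rrp16 rose in STF9 (0.65 ± 0.19, adjusted p = 0.0164; 0.45 ± 0.19 in STF6), and SPBC365.04c, a predicted RNA-binding protein, rose by 0.56 ± 0.21 (adjusted p = 0.0493) and 0.73 ± 0.21 (adjusted p = 0.0136). The rrp16 call and the STF9 call of SPBC365.04c were lost without STF9 replicate 2 or 3 (adjusted p = 0.0502 to 0.0761), and the STF6 call of SPBC365.04c in 7 of 9 fits without 1 library, all but those without T4A replicate 2 or 3 (adjusted p = 0.0589 to 0.179). Without T4A replicate 2, rrp16 was at 0.41 in STF9 and SPBC365.04c at 0.31 and 0.48, all passing. In STF6, rrp16 was at 0.21 without T4A replicate 2 (adjusted p = 0.0667) and passed without T4A replicate 3 (0.65, adjusted p = 0.0126). The annotation lists look-alike pairs with like product names, rrp14 and rrp1402, SPAC8F11.04 and SPCC306.07c, and rrp12 and SPBC1105.01; if their reads were shared, the split between the copies is uncertain. For 17 of the 111 genes an annotated antisense RNA also passed the filter on low counts, among them spp27, acr1, bmt5, utp4, utp5, gar2 and pxr1. Antisense RNAs below the filter were not looked for. Since no source says how strand was handled in counting, reads of a gene and its antisense RNA cannot be told apart.

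STF9 and STF6 were not separated at the threshold for any of the 111 genes (0 called by edgeR's test or by DESeq2, against 0.00% of all genes tested by edgeR), and none reached an unadjusted p under 0.05, where 178 of the 5951 genes did. The log2 difference of STF9 over STF6 ran from −0.12 (nip7) to 0.26 (nop16), with a median of 0.09, against 0.01 over all genes, and was above 0 for 87 of 111 (78.4%, against 52.2% of all genes). The libraries did not overlap for 8 genes that were higher in STF9 (7.21%, against 9.63% of all genes) and 1 that was lower, rpc19 (0.901%, against 7.36%). A difference between the mutants that missed the threshold is not shown to be absent. Mean log2 CPM over the 111 genes was 6.21, 6.30 and 6.39 in the STF9 libraries and 6.19, 6.23 and 6.26 in the STF6 libraries, with overlap.

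T4A replicate 2 was the lowest parental library for 81 of the 111 genes (73.0%), against 44.8% of all genes tested. Over the 111 genes the mean log2 CPM was 6.19 to 6.39 in the 6 mutant libraries, against 5.78 in that library and 6.10 and 6.15 in T4A replicates 1 and 3. It was lowest among the T4A libraries for 27 of the 33 that rose in STF6 (81.8%) and 46 of the 52 that rose in STF9 (88.5%). For all 11 and all 12 that fell, it was the highest parental library, against 43.9% of all genes tested. Without it 38 genes rose and 12 fell in STF6, and 55 rose and 12 fell in STF9, and the medians were 0.11 in STF6 and 0.21 in STF9, against 0.24 and 0.36 with all libraries. The counts of all genes in that same fit are not given here, so these 4 numbers are not shown to exceed the shares of all genes. Over the fits without 1 library, the number of all genes that rose ran from 745 to 1410 in STF6 and from 807 to 1645 in STF9. The medians over all genes in the fits without 1 library ran from −0.02 to 0.05 in STF6 and from 0.01 to 0.05 in STF9. The direction of the 111 genes as a group was therefore also present with T4A replicates 1 and 3 alone, at a smaller size.

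**Figure D4:**
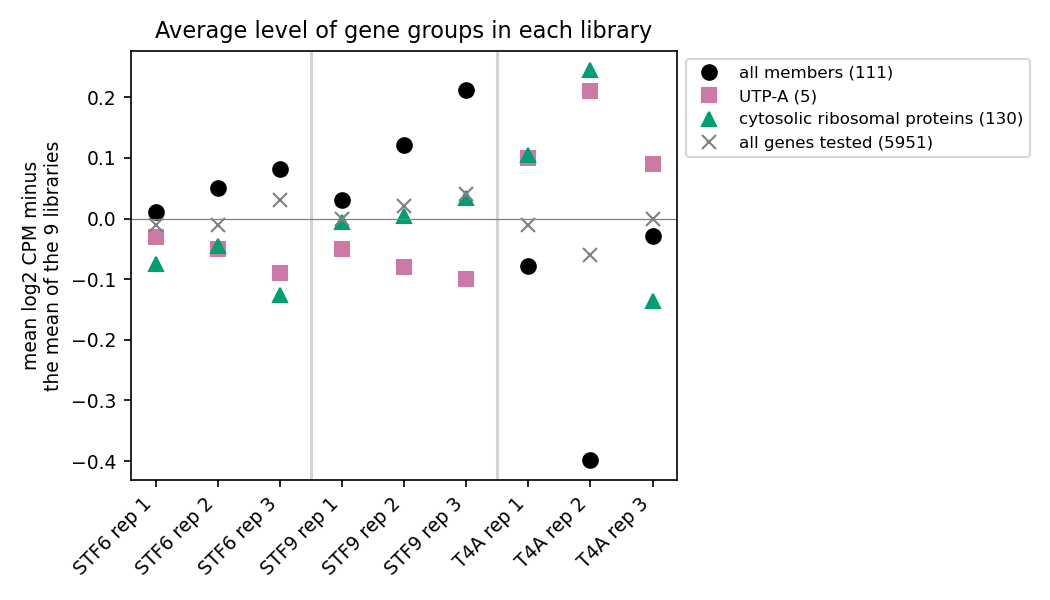
Mean log2 CPM of gene groups in each library, less the mean over the 9 libraries (y axis), for the 111 genes, the 5 UTP-A genes, 130 cytosolic ribosomal protein genes and all 5951 genes tested. T4A replicate 2 is lowest for the 111 genes and highest for the UTP-A and ribosomal protein genes, while the 6 mutant libraries lie closer together.

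Some calls held under all 16 alternatives. In STF6 these were 11 of the 33 that rose (gar2, cgr1, rlp24, urb2, pxr1, reb1, SPBC16H5.08c, fib1, SPBC4.02c, bmt5 and rei1) and 9 of the 11 that fell (rrn3, nan1, rli1, utp4, utp10, rrn6, pwp2, rpa2 and tif6). In STF9 they were 27 of the 52 that rose and 9 of the 12 that fell, the same 9 genes as in STF6. How often the calls of all genes tested held in this way is not given here. These counts therefore do not show that calls of the 111 genes held more often than others. By the authors' deposited table, 38 of the 111 genes were higher and 15 lower in STF6, and 59 higher and 15 lower in STF9 at an adjusted p under 0.05, against 21.8% and 26.3%, and 25.4% and 28.4%, of all genes with a value there. No gene had opposite calls there and in the edgeR fit, and 100 of 111 in STF6 and 99 of 111 in STF9 had the same call.

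**Figure D5:**
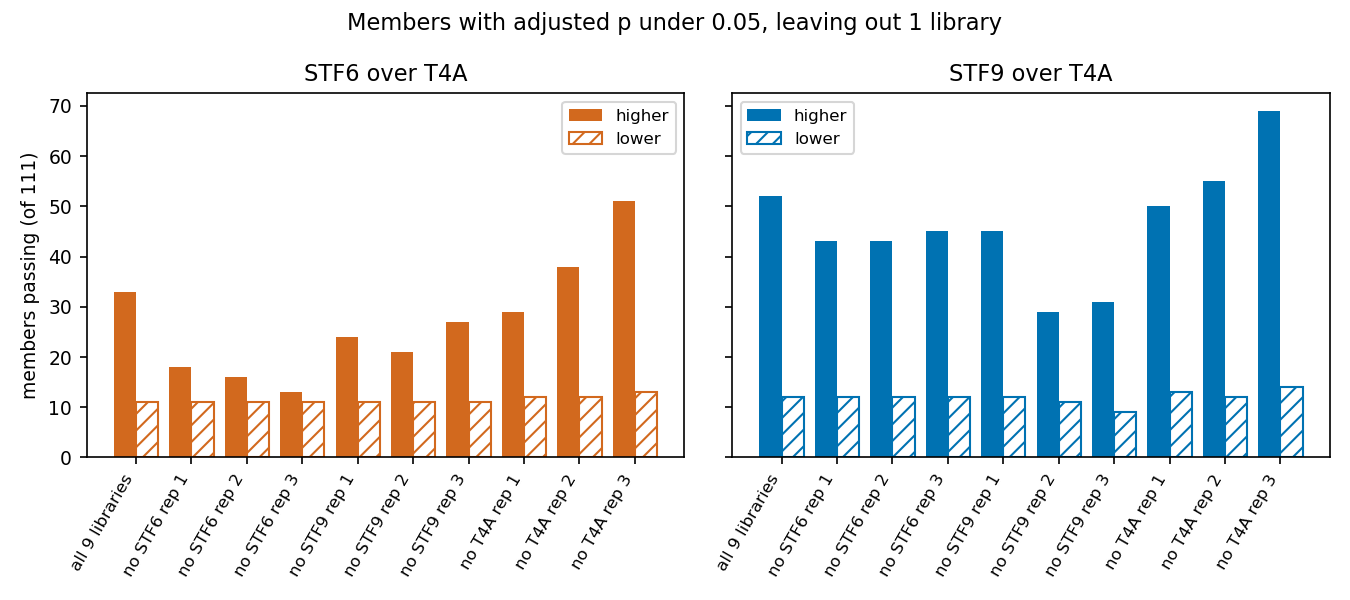
Number of the 111 genes with adjusted p under 0.05 (y axis), higher (filled) and lower (hatched), with all 9 libraries and without each in turn, for STF6 over T4A (left) and STF9 over T4A (right). The filled bars run from 13 to 51 in STF6 and from 29 to 69 in STF9, and the hatched bars from 11 to 13 and from 9 to 14.

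Further genes of the pathway, which the annotated wording does not reach, were taken from lists of known factors. They can be read against the same shares of all genes that rose (19.2% and 23.0%) and fell (19.2% and 21.3%). Of 22 further genes listed by name for large-subunit assembly, 8 rose and 1 fell in STF6 and 12 rose and none fell in STF9, among them the GTPase genes ria1 (0.56 ± 0.10 and 0.65 ± 0.10) and nog2 (0.51 ± 0.12 and 0.55 ± 0.12), and alb1 (0.63 ± 0.16 and 0.76 ± 0.16), for a shuttling factor. The gene lsg1, among those that rose, bears the name of a budding yeast assembly gene but is annotated here as the gamma subunit of the Lsk1 kinase complex, and drs1 is annotated as an aspartate-tRNA ligase. Both are kept in these counts, which are therefore not counts of assembly genes alone. Of 12 genes listed for the small subunit, of which dim1 is annotated here as a subunit of a spliceosomal complex and nep1 as a NEDD8 protease, 3 rose in STF6 and 5 in STF9, led by the helicase gene prp43 (0.52 ± 0.08 and 0.41 ± 0.08), and none fell. Of 14 genes listed for the exosome, which trims rRNA precursors, and its cofactors, 5 rose and 1 fell in each mutant. Among them mtr3 rose (0.44 ± 0.10 and 0.47 ± 0.10), and rrp43 fell (−0.25 ± 0.07 and −0.28 ± 0.07). The counts keep mtr4, annotated as a helicase of the TRAMP complex, which rose in STF9 (0.38 ± 0.10) and did not pass in STF6 (0.19 ± 0.10). Of 5 genes listed for the box H/ACA snoRNP, which makes pseudouridine, 1 rose and 1 fell in STF6, and 1 rose and none fell in STF9. The gene cbf5 rose (0.28 ± 0.07 and 0.37 ± 0.07) and gar1 fell in STF6 (−0.27 ± 0.09, with −0.18 ± 0.09 in STF9). The gar1 call was lost without STF6 replicate 2 (adjusted p = 0.0614). Neither nhp2, nop10 nor shq1 passed. None of 3 box C/D assembly genes passed. Without 1 library the number of large-subunit genes called higher ran from 4 to 11 in STF6 (4 and 5 without STF6 replicate 2 and 3) and from 6 to 14 in STF9 (7 without any 1 STF6 library or STF9 replicate 3, 6 without STF9 replicate 2). The number of small-subunit genes called higher ran from 2 to 6 and from 3 to 8, the highest without T4A replicate 3. The number of genes of the exosome list called higher ran from 2 to 6, with 2 or 3 without any 1 of the STF6 libraries, and from 4 to 9, with 9 without T4A replicate 3.

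RNA polymerase III, which makes the smallest rRNA and the tRNAs, had 6 of 19 genes higher in STF6 and 9 higher and 1 lower in STF9, led by the initiation factor genes brf1 (0.72 ± 0.15 and 0.70 ± 0.15) and bdp1 (0.63 ± 0.15 and 0.86 ± 0.15) and the subunit gene rpc25 (0.62 ± 0.08 and 0.46 ± 0.09). Of 5 subunit genes shared by all polymerases none passed in STF6 and rpc10 rose in STF9 (0.41 ± 0.12), a call lost without STF9 replicate 2 or 3 (0.32 to 0.40). Among 13 genes listed for exonucleases and cleavage enzymes, 5 rose and 1 fell in STF6 and 4 rose and 2 fell in STF9, including rex2 (0.62 ± 0.12 and 0.75 ± 0.12). These counts keep pop1, which rose in both mutants, and pop3, which fell in both. They are annotated here as a cullin adaptor and a WD repeat protein. Of 11 growth signalling genes, 4 rose and 2 fell in STF6 and 3 rose and 2 fell in STF9. The S6 kinase gene psk1 rose (0.61 ± 0.10 and 0.45 ± 0.10), and the S6 kinase gene sck2 (−0.40 ± 0.09 and −0.51 ± 0.09) and the Rag GTPase gene gtr2 (−0.57 ± 0.09 and −0.47 ± 0.09) fell. Without 1 library the number of RNA polymerase III genes called higher ran from 4 to 8 in STF6 and from 5 to 12 in STF9, where it was 5 without STF9 replicate 1 or 3. Of the signalling genes 1 was called higher in STF6 without any 1 STF6 library or without STF9 replicate 1 or 2, and of the exonuclease and cleavage genes 2 or 3 without any 1 STF6 library. T4A replicate 2 was the lowest of the 9 libraries in mean log2 CPM for the large-subunit (6.35), small-subunit (5.20), exosome (5.23) and RNA polymerase III (4.79) lists, and its part in these counts was not tested beyond leaving it out, which kept the number of genes called higher within 1.5 times for each of the 4 lists in both mutants.

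The 130 genes of cytosolic ribosomal proteins, the components that these factors assemble, had negative median fold changes. In STF6, 8 rose (6.15%, against 19.2% of all genes) and 46 fell (35.4%, against 19.2%), with a median of −0.22. In STF9, 12 rose (9.23%, against 23.0%) and 25 fell (19.2%, against 21.3%), with a median of −0.12, so the share that fell in STF9 was near that of all genes. Many are near-identical pairs, so the split between copies is uncertain. T4A replicate 2 was the highest parental library for 114 of the 130 (87.7%, against 43.9% of all genes tested). Replicate 3 was the lowest for 122 (93.8%, against 37.8%). Without replicate 2, 17 rose and 45 fell in STF6 (median −0.13), and 22 rose and 20 fell in STF9 (median −0.04). Without replicate 3, 94 fell in STF6 and 73 in STF9, and without replicate 1, 21 and 6. Leaving out mutant libraries also lowered the number that fell, to 26 and 29 in STF6 without STF6 replicate 1 and 3, and to 14, 12 and 6 in STF9 without STF9 replicate 1, 2 and 3.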

How the data were processed

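Stranded, paired-end poly(A)+ libraries were aligned with HISAT2 2.1.0 to ASM294v2 and counted per gene with HTSeq 0.10.0, and the authors' comparisons used DESeq2, per the submitters' processing notes; how strand was handled in counting is not stated there. The authors deposited raw counts per gene for each library, together with log2 fold changes and adjusted p-values of their own. From the counts, fold changes were fitted with edgeR 4.0.16 (R 4.3.3; quasi-likelihood test, TMM scaling, filterByExpr, group as the only term, all 9 libraries sharing 1 estimate of the spread), with p adjusted by Benjamini-Hochberg over 5951 genes and a threshold of 0.05. A duplicate line with no counts was dropped, which left 6986 genes. DESeq2 1.42.0 and 15 other alternatives were run. Named genes were those with the largest called changes, all RNA polymerase I and rRNA modification genes, and the most abundant of other classes; exceptions are stated. The members, roles and lists were chosen with earlier results of these data known. The labels do not say that libraries came from separate cultures, so p-values measure only the spread between these samples. Promoter motifs and sequences were not analysed here.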

Additional observations from a re-analysis of the deposited data

How the results depend on the processing

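The 16 alternatives were 2 other scalings, 2 other filters, DESeq2, a fit of only the libraries compared, a replicate block, and leaving out each of the 9 libraries. With scaling by library size only, 17 genes rose in STF6 and 31 in STF9; calls lost included those of rpa49, spb1, utp14, rrp7 and rlp7 in STF6, rrn7, nop58, ebp2 and rrp16 in STF9, and acr1, esf1, mrd1, utp16 and SPBC365.04c in both. With 1 library left out, the number that rose ran from 13 to 51 in STF6 and from 29 to 69 in STF9, and the median fold change in STF9 from 0.21 to 0.44. Correlations of deviations from the group mean ran from −0.31 to 0.38 between same-numbered libraries and from −0.36 to 0.39 between the others. With 3 libraries per group these values cannot decide whether the numbers pair the samples. With the replicate block 41 rose and 11 fell in STF6, and 61 rose and 12 fell in STF9. For this block and for library size only, the matching counts of all genes are not given here. Over all 16 alternatives the number of all genes that rose ran from 745 to 1410 in STF6 and from 807 to 1645 in STF9. Signs reversed for genes near 0 that did not pass with all libraries: tgs1 in STF9 was at −0.01 with median-ratio scaling and −0.01 with DESeq2, and rpc19 in STF9 was at 0.04 by library size only. With 1 library left out, values in STF6 ran from −0.01 to 0.18 for rrp12, −0.05 to 0.11 for rpa43, 0.00 to 0.15 for tsr2, −0.02 to 0.15 for nuc1, 0.00 to 0.13 for rpc40 and −0.01 to 0.10 for tgs1. In STF9 they ran from −0.04 to 0.01 for rpc19, −0.16 to 0.03 for eta2 and −0.02 to 0.06 for tgs1. The cause was not tested. Low counts limit eta2, the least abundant gene named.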

Other observations

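Antisense RNAs that passed the filter on low counts were in the table for 17 of the 111 genes, with the limit that no source says how strand was handled. In STF6, 2 were higher and 4 lower by edgeR's test, and in STF9, 1 was higher and 3 lower, against 19.2% and 19.2%, and 23.0% and 21.3%, of all genes tested. The antisense RNA of eta2 was higher (0.68 ± 0.19, adjusted p = 0.0130, in STF6 and 0.82 ± 0.19, adjusted p = 0.00429, in STF9), and that of utp5 lower (−0.65 ± 0.19, adjusted p = 0.0154, and −0.76 ± 0.19, adjusted p = 0.00725). That of SPBC56F2.07c was lower too (−0.74 ± 0.18, adjusted p = 0.00638, and −0.84 ± 0.18, adjusted p = 0.00303). The UTP-B genes outside the annotated wording, looked up after other values were seen, were utp18 (0.18 ± 0.09 in STF6 and 0.25 ± 0.09, adjusted p = 0.0351, in STF9) and dip2 (−0.16 ± 0.08 and −0.22 ± 0.08, adjusted p = 0.0398). The STF9 call of utp18 was lost in all fits without 1 library but those without T4A replicate 1 or 2, and that of dip2 without T4A replicate 1 or STF9 replicate 2 or 3 (adjusted p = 0.0515 to 0.140).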
